A study of Homo sapiens with 4 samples.

Results

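WDR5 binding in HSSY II cells, an SS18::SSX1-positive synovial sarcoma line, was compared between MS67 and its vehicle DMSO. The sites were the WDR5 CUT&RUN peaks of both libraries on chromosomes 1 to 22, X, and Y. A DMSO peak was called kept if an MS67 peak overlapped it by at least 1 bp and lost otherwise, and an MS67 peak that no DMSO peak overlapped was called MS67-only. The lists held 35605 peaks with DMSO and 14123 with MS67, or 49728 of the 66044 peaks in the series. CUT&RUN cuts and releases the DNA around an antibody-bound protein, and a peak is an interval where the released fragments pile up above the local background. The cells were treated for 4 days with 2.5 μM MS67 or with DMSO, and 1000000 cells with 50000 murine NIH-3T3 cells as a spike-in went into each library. The series has 1 library per condition from 1 cell line, so no difference had a replicate check, and the intervals given (exact Clopper-Pearson, 95%) cover counting error only.

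WDR5 is a WD40-repeat scaffold of the KMT2 (MLL/SET1) complexes, which place methyl groups on lysine 4 of histone H3, a mark of active promoters and enhancers. Other partners, MYC among them, bind WDR5 as well, and WDR5 is known to sit at the promoters of many ribosomal protein genes. MS67 is a degrader that links a WDR5 ligand to a ligand of the VHL E3 ubiquitin ligase, so that WDR5 is ubiquitinated and sent to the proteasome.

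The genome sequence under the strongest sites of each set is shown because the sets differed in their CpG content, as described further on. For each set, it is the peak of highest −log10 q at a background of at most 3 fragments and with a stretch of at least 100 bases outside annotated UTRs, in at most 180 bases of the plus strand of hg38 around the summit. A label gives the class of the peak by its centre, which the stretch itself need not share. The ZNF622 stretch lies downstream of the start site nearest to the centre of its peak. Capitals mark CpG dinucleotides. They numbered 11 and 4 in the kept pair, 5 and 15 in the lost pair, and 18 in both MS67-only stretches.
Kept, promoter of the lncRNA gene ENSG00000273523 (chr13:52128880-52129028): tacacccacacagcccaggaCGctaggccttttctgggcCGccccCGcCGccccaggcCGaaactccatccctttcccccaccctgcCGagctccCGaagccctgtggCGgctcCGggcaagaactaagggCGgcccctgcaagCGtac
Kept, intergenic, 19800 bp from ENSG00000278903 (chr21:6373812-6373991): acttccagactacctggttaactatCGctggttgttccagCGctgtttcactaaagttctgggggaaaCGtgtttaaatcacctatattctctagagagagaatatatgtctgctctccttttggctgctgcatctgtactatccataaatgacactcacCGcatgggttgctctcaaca
Lost, promoter of METTL27 (chr7:73842699-73842873): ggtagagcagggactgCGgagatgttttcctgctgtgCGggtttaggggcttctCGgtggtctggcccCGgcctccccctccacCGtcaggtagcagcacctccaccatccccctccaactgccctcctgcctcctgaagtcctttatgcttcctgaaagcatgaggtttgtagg
Lost, intergenic, 3917 bp from ENSG00000255671 (chr12:189003-189182): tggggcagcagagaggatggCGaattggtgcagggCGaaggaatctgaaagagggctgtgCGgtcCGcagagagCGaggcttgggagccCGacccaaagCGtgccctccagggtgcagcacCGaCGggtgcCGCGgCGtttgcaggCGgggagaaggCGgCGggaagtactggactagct
MS67-only, promoter of ZNF622 (chr5:16465506-16465665): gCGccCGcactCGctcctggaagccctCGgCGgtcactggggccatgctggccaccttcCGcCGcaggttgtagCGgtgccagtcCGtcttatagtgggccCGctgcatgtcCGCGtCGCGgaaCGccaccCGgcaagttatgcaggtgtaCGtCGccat
MS67-only, intron of ERO1A (chr14:52695119-52695298): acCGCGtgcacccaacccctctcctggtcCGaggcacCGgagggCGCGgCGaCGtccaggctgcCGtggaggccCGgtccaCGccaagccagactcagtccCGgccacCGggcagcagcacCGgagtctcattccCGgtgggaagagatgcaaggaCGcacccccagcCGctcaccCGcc

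Of the 35605 DMSO peaks, 8897 (25.0%) were kept and 26708 were lost, and 5029 of the 14123 MS67 peaks (35.6%) were MS67-only. A peak was assigned to a promoter if its centre lay no more than 1000 bp before or 100 bp after the transcription start site of a protein-coding or long noncoding RNA (lncRNA) gene. At promoters, 3643 of 9866 DMSO peaks were kept (36.9%, interval 36.0 to 37.9%). In introns, 3234 of 15562 were kept (20.8%, 20.2 to 21.4%), and between genes 1123 of 7061 (15.9%, 15.1 to 16.8%). WDR5 peaks at promoters were thus kept more often than those elsewhere. Coding exons (31.2% of 1383 peaks) and UTR exons (29.4% of 993) lay between promoters and introns, and exons of noncoding genes (23.5% of 740) were closer to introns. As a result, promoters made up 40.9% of the kept sites but 23.3% of the lost sites, and intergenic sites made up 12.6% and 22.2%. All distal sites together, that is, all peaks outside promoters, were kept in 20.4% (19.9 to 20.9%).

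The MS67 library was the shallower of the 2. Its coverage, recovered from the lowest background in the list, was 0.168 fragments per bp against 0.368 with DMSO, and the median summit pileup was 8 fragments against 13. Stronger DMSO peaks were kept more often, so annotation was compared at equal strength by cutting the DMSO list into 10 deciles by −log10 q. In the lowest decile, 18.5% of promoter peaks and 4.87% of intergenic peaks were kept. In the highest decile (−log10 q of 8.95 to 55.6), the kept shares were 65.0% and 51.6%. Promoter peaks were kept more often than intergenic peaks in each of the 10 deciles, by 13.4 to 22.9 percentage points. Weighted to the strength of the whole DMSO list, the kept share was 34.5% at promoters, 22.1% in introns, and 17.3% between genes. Width moved with the result too: kept peaks had a median width of 467 bp and lost peaks 266 bp, and promoter peaks (347 bp) were wider than intergenic peaks (272 bp). With an MS67 summit within 200 bp of the DMSO summit as the criterion, which does not depend on width, 25.9% of promoter and 14.9% of distal DMSO peaks were kept.

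**Figure D1:**
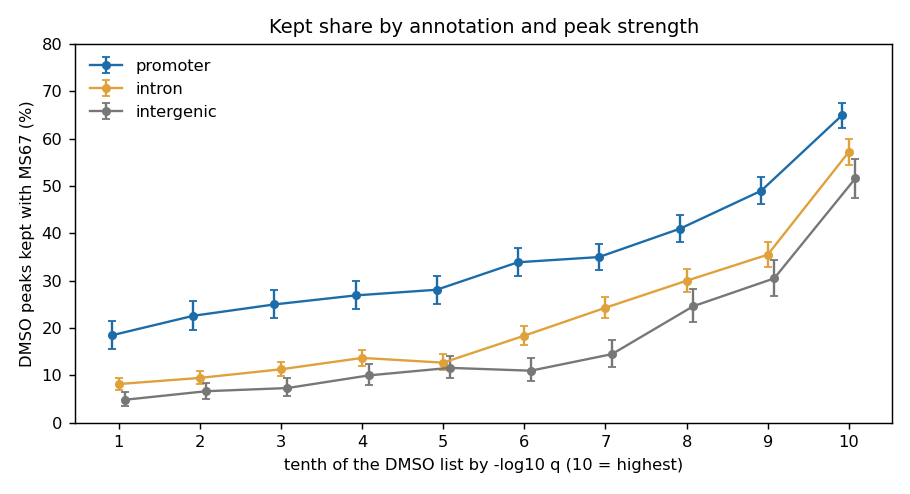
The share of DMSO WDR5 peaks kept with MS67 (vertical axis, %) in each decile of the DMSO list by −log10 q (horizontal axis, 10 is the highest), for promoter, intron, and intergenic peaks, with exact 95% intervals as bars. Promoter peaks lie above intergenic peaks in every decile, from 18.5% against 4.87% in the lowest to 65.0% against 51.6% in the highest.

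Loss of a peak is not loss of all signal at this depth. Scaled to the coverage of the MS67 library, the median lost peak would have held 5.50 fragments. Only 36.3% of the lost peaks would still have reached the smallest −log10 p of the MS67 list (4.06) at an unchanged density, compared with 66.2% of the kept peaks. Among the 15574 DMSO peaks that would have reached it, 47.2% were kept at promoters, 33.8% in introns, and 27.6% between genes. The order of the classes was therefore the same among sites that the shallower library could have called. The longest overlap was under 50 bp for 253 kept peaks (2.84%), and 559 lost peaks (2.09%) had an MS67 peak less than 100 bp away. An MS67 peak within 1 kb was found for 4984 lost peaks (18.7%), that is, for 31.1% of those at promoters and 14.9% of those at distal sites. The shares depend on the overlap required: with at least 50% of the DMSO peak's own length, 19.3% of promoter and 9.88% of distal peaks were kept.

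The kept share also changed with the distance to the nearest start site. It was 44.1% for 1665 DMSO peaks centred 1 to 100 bp downstream of a start site and 43.6% for 1313 peaks in the 100 bp upstream of it. It was 42.6% from 250 to 500 bp downstream, 32.9% from 500 to 1000 bp downstream, and 24.9% from 1000 to 500 bp upstream. Beyond 10 kb it was 14.9% upstream and 14.6% downstream. WDR5 sites were thus kept more often the closer they lay to a start site, with a longer reach downstream than upstream. Among kept sites, 64.3% lay within 1 kb of a start site, compared with 36.2% of lost sites. Sites over 10 kb away were 19.4% of the kept and 37.3% of the lost.

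**Figure D2:**
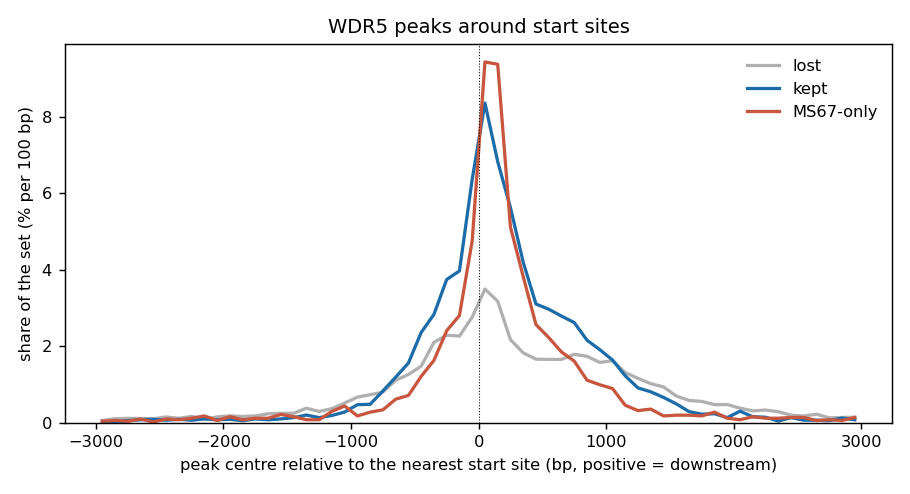
Position of WDR5 peak centres relative to the nearest start site (horizontal axis, bp, positive is downstream), as the share of each set per 100 bp (vertical axis, %). Kept and MS67-only peaks form a narrow maximum just downstream of the start site, and lost peaks have a lower one. At 0 to 500 bp downstream lie 28.0% of the kept, 30.2% of the MS67-only, and 12.3% of the lost peaks.

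MS67-only sites lay near start sites less often than the MS67 peaks shared with DMSO, except just downstream. Within 1 kb on either side lay 53% of the MS67-only and 65.2% of the overlapping MS67 peaks. Within the first 500 bp downstream the shares were alike, at 30.2% and 30.5%. More of the MS67-only peaks lay far out, with 33.1% over 10 kb from a start site, compared with 19.4% of the overlapping MS67 peaks. Promoters made up 34.4% of the MS67-only peaks (33.1 to 35.7%) and 41.2% of the overlapping ones, and intergenic peaks 17.4% and 12.6%. This order turned around among strong peaks. With −log10 q above 5 in both lists, promoters made up 52.8% of 885 peaks found only with MS67 and 44.6% of 1613 overlapping ones. Of these 885, 389 overlapped no peak of the full DMSO list, and 53.2% of those were at promoters. Many MS67-only peaks lay beside a DMSO peak, which was within 1 kb for 62.1% of those at promoters (59.8 to 64.4%), 38.2% of those at distal sites (36.5 to 39.9%), and 62.0% of the 389. With the promoter window used here, the weak MS67-only peaks were therefore mostly outside promoters and the strong ones mostly at promoters. Those outside promoters include peaks a short way downstream of a start site, beyond the end of that window. Most MS67-only peaks as a set lay within 1 kb of a start site on either side, and that wider window was not split by strength. MS67-only peaks were weak as a set, with a median −log10 q of 2.86, a median pileup of 7 fragments, and a median width of 190 bp, compared with 3.66, 9 fragments, and 267 bp for the overlapping MS67 peaks.

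Kept sites were richer in CpG than lost sites, and MS67-only promoters were the richest. A summit was called CpG-rich if the 201 bp around it had a G+C content above 50% and an observed-to-expected CpG ratio above 0.6. At promoters, 62.2% of kept peaks (60.6 to 63.8%), 50.9% of lost peaks (49.6 to 52.1%), and 76.2% of MS67-only peaks (74.2 to 78.2%) were CpG-rich. At distal sites, the shares were 32.0%, 16.7%, and 23.0%. Read the other way, 41.7% of CpG-rich and 31.1% of CpG-poor promoter peaks were kept, as were 33.0% of CpG-rich and 17.3% of CpG-poor distal peaks. At the strength of the whole DMSO list, these were 39.1% and 29.2% at promoters and 29.8% and 19.4% at distal sites. Distal peaks in CpG-rich sequence were thus kept about as often as promoter peaks outside it. Distal sites here include those more than 100 bp downstream of a start site. Of the 20201 DMSO peaks over 1 kb from any start site, 15.7% were kept, and these were not split by CpG content.

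**Figure D3:**
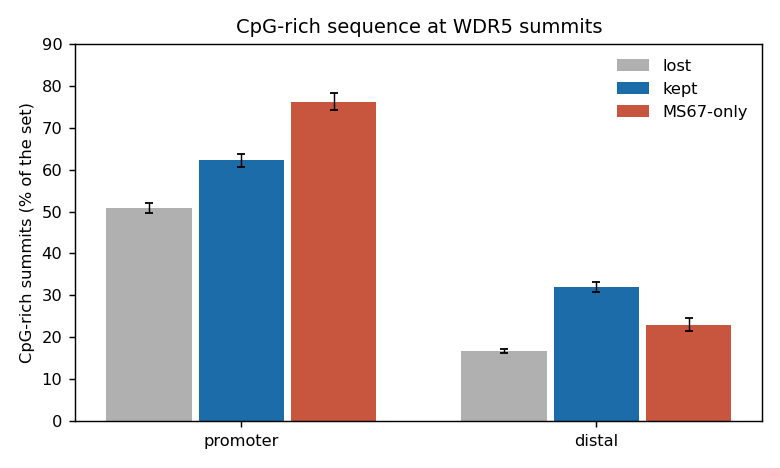
Share of WDR5 summits in CpG-rich sequence (vertical axis, %) for lost, kept, and MS67-only peaks at promoters and at distal sites, with exact 95% intervals as bars. At promoters the share rises from lost (50.9%) to kept (62.2%) to MS67-only (76.2%), and at distal sites kept peaks are highest (32.0%).

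Short motifs were counted on both strands of the same 201 bp and, for comparison, around all 84597 start site positions. The GC box GGGCGG, a binding sequence of SP/KLF factors, was present at 41.2% of kept, 35.7% of lost, and 46.0% of MS67-only promoter peaks (38.8% of start sites). At distal peaks, it was present at 25.3% of kept and 15.5% of lost sites. TATAAA, the TATA box core, went the other way, with 1.73% of kept and 2.83% of lost promoter peaks and 2.21% of kept and 4.56% of lost distal peaks (6.86% of start sites). The homeodomain core TAATTA was present at 0.952% of kept and 2.21% of lost distal peaks (2.31% of start sites). These AT-rich motifs were thus rarer and the GC box more frequent at kept sites. The counts were not corrected for base composition. The median G+C content of the windows was 64.2% at kept and 62.2% at lost promoter peaks, and 60.7% and 55.2% at distal peaks. The E-box CACGTG, which MYC and its partner MAX bind, barely differed, with 5.16% of kept, 4.93% of lost, and 4.57% of MS67-only promoter peaks (4.98% of start sites). AANATGGCG, the core of the YY1 motif, was present at 2.08% of MS67-only promoter peaks (1.46 to 2.87%), compared with 0.686% of kept and 0.643% of lost ones (3.10% of start sites). CCGGAAG, an ETS factor motif, was likewise most frequent at MS67-only promoters (6.36%, against 4.83% of kept and 3.78% of lost, and 8.60% of start sites). A match to these letters is a description of the sequence and was not tested as a binding site.

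At kept sites, the summit signal was compared as pileup per coverage of the library, that is, as a share of that library and without spike-in scaling. The pileup had a median of 16 fragments with DMSO and 9 with MS67, and the MS67-to-DMSO ratio per coverage had a median of 1.27 (quartiles 0.992 and 1.64). That ratio holds a selection, since a weak DMSO peak could be kept only where MS67 signal was high: it fell from a median of 2.01 in the lowest decile of DMSO −log10 q to 0.903 in the highest. In the highest decile, 2109 peaks were kept, and 1325 of them (62.8%) had a ratio below 1. There the ratio was alike at promoters (0.898) and at distal sites (0.909). That decile holds the opposite selection, since its peaks were chosen for high DMSO signal, so neither end of the list shows a change of signal by itself. Widths hold the same selection and the lower MS67 coverage: the median width of kept sites was 712 bp with DMSO and 310 bp with MS67 in the highest decile, and 237 and 248 bp in the lowest. The summit lay within 100 bp of the DMSO summit at 49.3% of all kept sites.

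**Figure D4:**
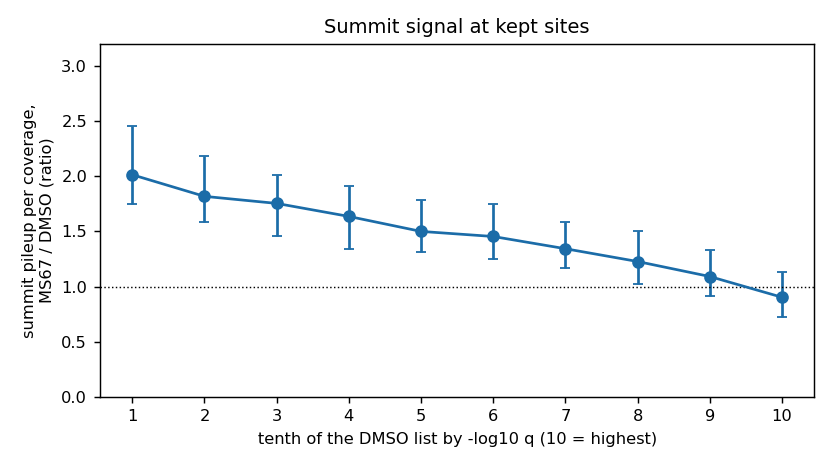
Ratio of summit pileup per coverage, MS67 to DMSO (vertical axis), at kept WDR5 sites in each decile of the DMSO list by −log10 q (horizontal axis). Points are medians and bars quartiles, and the median falls from 2.01 in the lowest decile to 0.903 in the highest.

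The kept promoter peaks of highest −log10 q were at PARD3, a polarity protein gene, with its divergent lncRNA gene, at CREM, which encodes a cAMP-responsive transcription factor, between LMBRD1 and COL19A1, at SERHL2, and at ENSG00000273523. The PARD3 peak (chr10:34815459-34816883) had a −log10 q of 55.6 and a summit of 128 fragments with DMSO, and 9.20 and 38 fragments with MS67. The CREM peak (chr10:35126267-35126745) had 52.4 and 100 fragments with DMSO and 16.1 and 37 fragments with MS67. Both lay in a stretch of chromosome 10 with raised background (17.4 and 10.8 fragments under the DMSO summits), so their fold enrichments of 7.01 and 8.55 were below that of the LMBRD1 and COL19A1 peak. That peak (chr6:69866419-69867854) had a fold enrichment of 11.1 with DMSO and 8.01 with MS67, and its summit went from 68 to 16 fragments. Per coverage, the MS67-to-DMSO ratio of the 5 promoter summits was 0.472 to 0.812, in peaks that were chosen for their high DMSO −log10 q. Among the strongest kept distal peaks, the one 4316 bp upstream of ZSCAN4 (chr19:57664190-57665048) had 39 fragments with DMSO and 13 with MS67, and an intronic PARD3 peak (chr10:34739455-34740675) had 68 and 29. The 3 other distal peaks were intergenic, nearest to ENSG00000278903, ENSG00000232140, and ENSG00000289636.

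The lost promoter peaks of highest −log10 q were at METTL27, LINC03060, CUL2, ENSG00000291149, and STK3. At METTL27 (chr7:73842699-73842886), the DMSO peak had 38 fragments, a fold enrichment of 10.0, and a −log10 q of 23.5. At CUL2, which encodes the cullin scaffold of the VHL ubiquitin ligase, the DMSO peak (chr10:35090716-35090908) had 54 fragments over a background of 8.13 and a fold enrichment of 6.02. At STK3, a kinase of the Hippo pathway, the DMSO peak had 29 fragments and a fold enrichment of 10.6. An MS67 peak lay 243 bp from the CUL2 peak and 405 bp from the STK3 peak, and none within 1 kb of the other 3. These 5 lost peaks measured 188 to 755 bp, while the 5 strongest kept promoter peaks measured 479 to 1436 bp. The lost distal peaks of highest −log10 q were nearest to ENSG00000255671, LINC01079, CDC14B, MROH1, and NANOS1, with 32 to 41 fragments.

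The MS67-only promoter peaks of highest −log10 q were at ZNF696, SMARCE1, ZNF622, PTGR2, and PPP2R1A, and their centres lay within 74 bp of a start site. The SMARCE1 peak (chr17:40648075-40648333) had 15 fragments, a fold enrichment of 10.8, and a −log10 q of 12.6. SMARCE1 encodes the BAF57 subunit of SWI/SNF, and the gene also had a promoter peak with DMSO (chr17:40648603-40648992, 12 fragments) that was lost. ZNF696 likewise had a lost DMSO promoter peak of 15 fragments, 83 bp from its MS67-only peak of 20 fragments. At ZNF622, the MS67 peak (chr5:16465354-16466098) had 22 fragments and a fold enrichment of 8.40. PPP2R1A encodes the scaffold subunit of protein phosphatase 2A, and its MS67 peak (chr19:52170751-52171105) had 15 fragments and a fold enrichment of 8.67. Of the 5 strongest MS67-only peaks outside promoters, 4 were still within 308 bp downstream of a start site, at SPIN4, ERO1A, ERGIC2, and ENSG00000291075, and the other was in an intron, 4003 bp from the start site of ENSG00000229491. A DMSO peak lay within 1 kb of 7 of these 10 MS67-only peaks, the exceptions being those at ZNF622, ERGIC2, and ENSG00000229491.

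Gene classes were compared by their promoters. Of 20007 protein-coding genes, 7374 (36.9%) had a DMSO promoter peak, 3091 of these (41.9%) had one that was kept, and 961 genes (4.80%) had an MS67-only promoter peak and no DMSO peak there. With the promoter taken as 1 kb on either side of a start site, 10427 genes (52.1%) had a DMSO peak, 48.9% of them had one that was kept, and 1091 genes (5.45%) had an MS67-only peak. Among 18834 lncRNA genes, 2293 had a DMSO promoter peak and 40.3% of these had one that was kept. Where a promoter window belonged to both a protein-coding and an lncRNA gene, 42.2% of 675 DMSO peaks were kept, compared with 37.0% of 7363 in windows of protein-coding genes alone and 34.8% of 1828 in windows of lncRNA genes alone. Per gene, the kept shares of lncRNA and protein-coding promoters were close in this window, but within 1 kb on either side 41.7% of 3588 lncRNA genes kept a peak (interval 40.05 to 43.3%), below the protein-coding genes (48.0 to 49.9%).

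Where fragments are given with DMSO and with MS67 for a kept gene, the peaks compared overlapped. Cytosolic ribosomal protein genes had many MS67-only peaks. Of the 79 genes, 25 (31.6%) had a DMSO promoter peak, 8 of these kept one (32.0%, 14.9 to 53.5%), 17 lost it, and 11 genes (13.9%, 7.16 to 23.6%) had an MS67-only peak. Within 1 kb on either side, 27 genes had a DMSO peak, 8 kept one, and 13 (16.5%) had an MS67-only peak. The kept share was below that of all protein-coding genes, whose value lay within its interval, and the MS67-only share was above, with the value of all protein-coding genes outside its interval. The kept genes of highest −log10 q were RPL10A (24 fragments with DMSO and 8 with MS67), RPL30 (16 and 9), RPL10 (13 and 9), and RPL27 (9 and 6). At RPLP1, RPL37, and RPS27A the −log10 q was higher with MS67 (4.38, 4.22, and 6.04) than with DMSO (4.27, 3.79, and 3.07). Weak DMSO peaks could be kept only where MS67 signal was high, so these values do not show a change of signal by themselves. Lost genes of high −log10 q included RPS20 (17 fragments), RPS15 (12), and RPL35 (13). Of the 17 lost genes, 4 had a new MS67 peak elsewhere in a promoter of the gene, RPL13 among them, as did 7 of the 19 lost within 1 kb on either side. Over all protein-coding genes, this held for 426 of 4283 lost genes, and for 1082 of 5325 within 1 kb on either side. MS67-only peaks were found at RPL36A (10 fragments, −log10 q of 6.78), RPL15 (12 and 5.85), RPS4X (6 and 4.10), and RPL36 (10 and 4.07), and at FAU, RPL4, RPL9, RPL21, RPLP2, RPS13, and RPS28. Most of the ribosomal protein promoter peaks were weak: their median −log10 q with DMSO was 4.09, compared with 4.93 over all promoters. Ribosomal protein genes have many processed pseudogene copies in the genome, and whether reads from these were placed at the genes was not tested. The genome sequence under a strong kept, lost, and MS67-only ribosomal protein promoter peak, outside annotated UTRs as above, is given with CpG in capitals, of which there were 16, 14, and 7.
Kept, RPL10A (chr6:35468022-35468201): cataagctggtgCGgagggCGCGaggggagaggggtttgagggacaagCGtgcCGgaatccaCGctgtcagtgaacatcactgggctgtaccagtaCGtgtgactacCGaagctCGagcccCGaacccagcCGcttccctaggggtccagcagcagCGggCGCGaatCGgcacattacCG
Lost, RPS15 (chr19:1438053-1438230): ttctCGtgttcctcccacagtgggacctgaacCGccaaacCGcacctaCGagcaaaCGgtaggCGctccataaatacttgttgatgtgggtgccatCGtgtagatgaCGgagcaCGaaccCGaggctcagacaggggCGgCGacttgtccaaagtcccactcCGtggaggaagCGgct
MS67-only, RPS4X (chrX:72277325-72277504): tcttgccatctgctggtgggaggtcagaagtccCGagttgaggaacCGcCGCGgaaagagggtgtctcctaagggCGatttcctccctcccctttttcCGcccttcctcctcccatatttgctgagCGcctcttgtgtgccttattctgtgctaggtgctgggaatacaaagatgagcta

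The other lists of protein synthesis had kept shares of 36.4 to 53.7%, and the value of all protein-coding genes lay within each interval. Of 78 mitochondrial ribosomal protein genes, 48 had a DMSO promoter peak and 24 of these kept one (50%, 35.2 to 64.8%), and 5 had an MS67-only peak. The highest were MRPL37 (22 fragments with DMSO and 7 with MS67) and MRPL27 (17 and 7) among the kept, and MRPS24 (17 with DMSO) and MRPL24 (18) among the lost, although both had a kept peak within 1 kb of a start site. Of 78 translation initiation and elongation factor genes, taken by symbol, 41 had a DMSO promoter peak and 22 kept one (53.7%, 37.4 to 69.3%), and 8 had an MS67-only peak. EEF1A1, the elongation factor that delivers tRNA to the ribosome, had 24 fragments with DMSO and 15 with MS67, and EIF2B5, a subunit of the exchange factor of eIF2, had 28 and 9. EIF6 (21 fragments with DMSO) and EEF2K (23) lost their promoter peak, and EEF2K had a kept peak within 1 kb of a start site. Of 20 cytosolic aminoacyl-tRNA synthetase genes, 11 had a DMSO promoter peak and 4 kept one: LARS1, VARS1, HARS1, and QARS1. SARS1 and GARS1 were among the 7 that lost it. Of 30 small nucleolar RNA host genes, 16 had a DMSO promoter peak and 8 kept one, with GAS5 (17 fragments with DMSO and 11 with MS67) and SNHG29 among them, while SNHG6 and SNHG12 lost it.

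Among other housekeeping classes, the MS67-only share was high for the proteasome and for DNA replication. Of 48 proteasome genes, 17 had a DMSO promoter peak, 7 kept one, and 7 (14.6%, 6.07 to 27.8%) had an MS67-only peak, with PSME2 (13 fragments), PSMD14 (9), and PSMG1 (13) the highest. Of the 10 proteasome genes that lost theirs, 4 had a new MS67 promoter peak, compared with 426 of 4283 over all protein-coding genes. Of 45 DNA replication genes, 21 had a DMSO promoter peak, 10 kept one, and 6 (13.3%, 5.05 to 26.8%) had an MS67-only peak. Within 1 kb on either side, 11 genes of either class had an MS67-only peak, which was 22.9% of the proteasome and 24.4% of the DNA replication genes. RFC4, a subunit of the clamp loader, kept its peak with 15 fragments with DMSO and 13 with MS67, and PCNA, the clamp itself, lost a peak of 13 fragments. MCM10 lost a peak of 16 fragments upstream and gained one of 11 fragments at chr10:13161537-13161814. Of 72 splicing factor genes, 29 had a DMSO promoter peak, 11 kept one, and 6 (8.33%) had an MS67-only peak, and of 46 complex I genes, 23 had a DMSO promoter peak, 7 kept one, and 3 (6.52%) had an MS67-only peak. At SRSF5, PRPF40B, and HNRNPR, the −log10 q was higher with MS67 (6.90, 7.77, and 6.86) than with DMSO (6.32, 7.40, and 6.14). Kept peaks are in part selected for high MS67 signal, so these values do not show a change of signal by themselves.

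Among the lists with at least 10 genes with a DMSO promoter peak, Mediator genes had the lowest kept share. Their promoter peaks were weak with DMSO, with a median −log10 q of 4.14 compared with 4.93 over all promoters, and weak peaks were kept less often. Of 33 genes, 16 had a DMSO promoter peak and 2 kept one (12.5%, 1.55 to 38.4%, compared with 41.9% of all protein-coding genes), MED29 and MED24. Of the 14 that lost it, 3 had a new MS67 peak elsewhere in a promoter, compared with 426 of 4283 over all protein-coding genes. MED10, MED23, MED12L, and MED26 lost peaks of 22, 13, 19, and 16 fragments. Within 1 kb on either side, 4 of 23 were kept (17.4%, 4.95 to 38.8%). Of 12 RNA polymerase II subunit genes, 4 had a DMSO promoter peak, and POLR2F, POLR2G, and POLR2H kept one.

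Genes of the complexes that WDR5 belongs to had a DMSO promoter peak about as often as protein-coding genes at large. Of 19 KMT2 complex genes, 7 (36.8%) had a DMSO promoter peak. DPY30, a core subunit, kept it (23 fragments with DMSO and 8 with MS67), as did PAXIP1 (13 and 9). KMT2A, KMT2D, SETD1A, ASH2L, and PSIP1 lost peaks of 15, 15, 10, 11, and 21 fragments. MS67-only peaks were found at 4 of the 19 genes (21.1%, 6.05 to 45.6%, compared with 4.80% of all protein-coding genes). These were WDR5 itself, HCFC1, KDM6A, and CXXC1, all of them with a −log10 q of 2.95 or less. At WDR5, the peak (chr9:134135213-134135561) had 7 fragments and a fold enrichment of 4.64. Of 28 SWI/SNF genes, 14 had a DMSO promoter peak and 5 kept one: SMARCA2, SS18 (22 fragments with DMSO and 12 with MS67), BCL7B, SMARCD3, and SMARCC1. SMARCB1, SMARCD1, DPF1, and BCL7C were among the 9 that lost it. Of 33 Polycomb genes, 17 had a DMSO promoter peak and 8 kept one (47.1%), CBX7 and RBBP7 the highest, while BCOR, PCGF5, PCGF6, and PHC3 led the lost ones. Within 1 kb on either side, 14 of 19 were kept (73.7%, 48.8 to 90.9%), so this list depended on the width of the promoter.

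Developmental transcription factor genes had lower kept and MS67-only shares than protein-coding genes at large (41.9% and 4.80%), whose values lay outside both intervals. Of 177 developmental transcription factor genes, 46 (26.0%) had a DMSO promoter peak, 12 of these kept one (26.1%, 14.3 to 41.1%), and 2 (1.13%, 0.137 to 4.02%), FOXP1 and HOXD11, had an MS67-only peak. Within 1 kb on either side, 22 of 71 were kept (31.0%, 20.5 to 43.1%). FOXI3 (20 fragments with DMSO and 5 with MS67), DLX6, SIX2, and FOXJ1 (23 and 7) were the highest of the kept. SOX21, SOX5, SOX3, and FOXC2 lost peaks of 33, 26, 34, and 18 fragments. The median −log10 q of these promoter peaks with DMSO was 4.22, below that of all promoters (4.93). Of 26 FGF ligand and receptor genes, 13 had a DMSO promoter peak and FGF22, FGFR2, and FGF2 kept one (23.1%, 5.04 to 53.8%), while FGF5, FGFR1, FGF4, and FGF13 led the 10 that lost it. The FGF promoter peaks were also weak with DMSO, with a median −log10 q of 3.90. Of 29 WNT and Frizzled genes, 14 had a DMSO promoter peak and 6 kept one (42.9%, close to protein-coding genes at large), with FZD8 (75 fragments with DMSO and 39 with MS67, at a fold enrichment of only 3.71 and 3.65) and WNT2 (39 and 15) the highest. Of 95 potassium channel genes, 40 had a DMSO promoter peak, 12 kept one (30.0%, 16.6 to 46.5%), and 2 had an MS67-only peak. Of 44 collagen genes, 21 had a DMSO promoter peak, 8 kept one, and none had an MS67-only peak.

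Numbered ZNF genes, most of which encode zinc finger proteins and many of which lie on chromosome 19, kept WDR5 somewhat more often than protein-coding genes at large. Of 514 genes, 194 (37.7%) had a DMSO promoter peak and 96 of these kept one (49.5%, 42.3 to 56.7%), and within 1 kb on either side 184 of 307 did (59.9%, 54.2 to 65.5%). ZNF446 (36 fragments with DMSO and 21 with MS67) and ZNF324B (32 and 22) were the highest of the kept with an MS67 peak centred at the promoter. ZNF782, ZNF281, ZNF467, and ZNF282 lost peaks of 25, 26, 43, and 26 fragments. ZNF282 had an MS67 peak of 11 fragments within 1 kb of a start site (chr7:149195599-149195759), and ZNF281 and ZNF467 had none. Many ZNF genes are recent duplicates, and whether reads were placed at the right copy was not tested. Few promoter peaks were called at olfactory receptor, clustered protocadherin, and replication-dependent histone genes. With DMSO, 1 of 420, 0 of 53, and 3 of 68 of these genes had one, and within 1 kb on either side 2, 3, and 5 did. The lack of a called peak is not evidence that WDR5 was absent. The histone promoter peaks, at H1-4, H4C13, and H2AC13, were all lost and had 8 to 11 fragments, and the near-identical histone copies limit where reads can be placed.

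**Figure D5:**
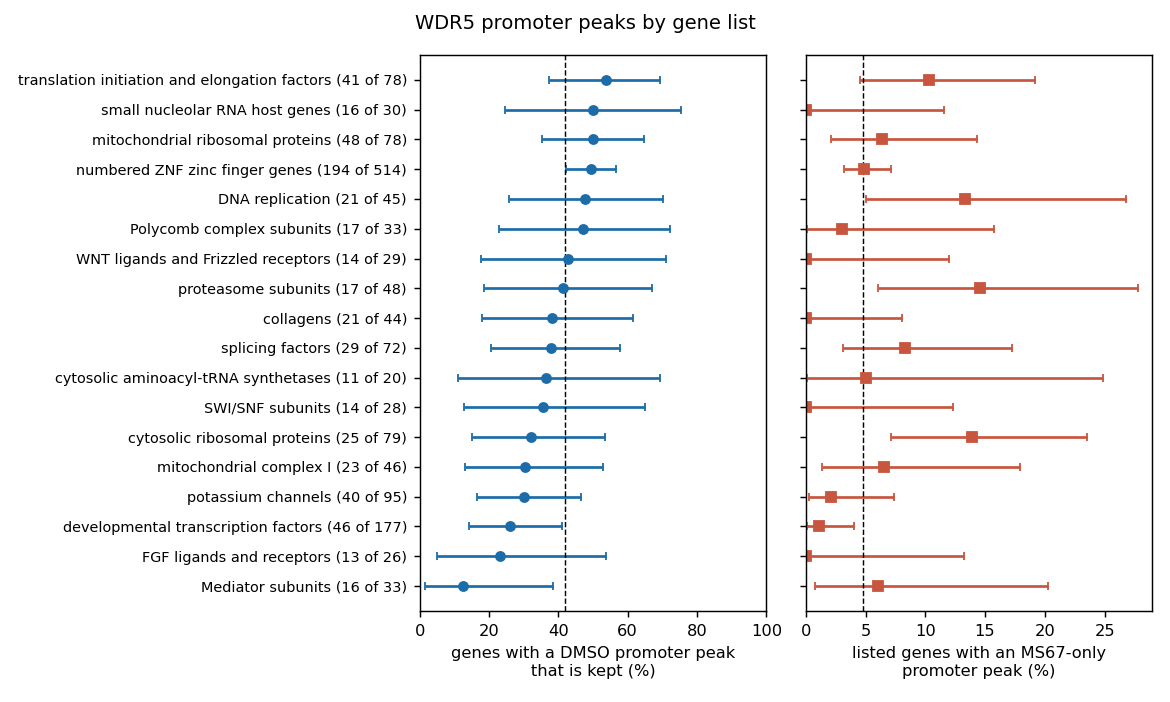
The 18 gene lists shown each had at least 10 genes with a DMSO WDR5 promoter peak (number of such genes of those listed in parentheses). The left panel gives the share of these genes whose peak was kept (%), the right panel the share of listed genes with an MS67-only promoter peak (%), with exact 95% intervals as bars and all protein-coding genes as dashed lines (41.9% and 4.80%). Mediator genes (12.5%), FGF ligand and receptor genes (23.1%), and developmental transcription factor genes (26.1%) lie lowest on the left, and proteasome (14.6%), ribosomal protein (13.9%), and DNA replication genes (13.3%) highest on the right.

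Among the loci that the study followed, RPL27 kept its promoter peak, and RPL35, SIM2, and the promoter peak of MNX1 were lost. MNX1, a motor neuron homeobox gene, had a peak of 34 fragments and a fold enrichment of 3.18 (chr7:157010995-157011621) that was lost, but a kept site lay within 1 kb of a start site. SIM2, a bHLH-PAS transcription factor gene, lost a peak of 34 fragments over a high background, with a fold enrichment of 2.69. CDKN1A, which encodes the cell cycle inhibitor p21, lost all 3 of its peaks within 1 kb of a start site, of which the promoter peak had 18 fragments and the strongest 21. FOXC1, FZD10, NTSR1, RPL7, and SOX8 had no called WDR5 peak within 1 kb of a start site in either library. The paper, however, reports WDR5 signal that fell with MS67 in its tracks at SOX8 and NTSR1. It also reports reduced histone methylation at FOXC1, FZD10, and RPL7. A missing peak in these lists is thus not evidence that WDR5 was absent there, and the signal itself was not tested.

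Distal WDR5 sites that also had a peak of SS18::SSX, the fusion oncoprotein of synovial sarcoma, with DMSO were kept more often than those without. There, 28.7% of 3585 peaks with and 19.1% of 22154 without an SS18::SSX peak were kept, and at the strength of the whole DMSO list the shares were 24.6% and 20.8%. At promoters, 40.7% of 1373 peaks with and 36.3% of 8493 without were kept, and at equal strength 32.3% and 34.7%. The excess at promoters was thus no longer seen once strength was taken into account. Width was not matched, although a wider peak overlaps others more easily. The median widths with and without an SS18::SSX peak were 385 and 273 bp at distal sites, and 513 and 331 bp at promoters. MS67-only peaks seldom fell on SS18::SSX sites of the DMSO library, with 6.13% at promoters and 7.09% at distal sites, compared with 11.7% and 17.0% of the MS67 peaks shared with DMSO. The MS67-only peaks were also narrower, with a median of 190 bp against 267 bp.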

How the data were processed

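WDR5 was profiled by CUT&RUN in HSSY II cells with DMSO or 2.5 μM MS67, 1 library each. Per the submitters' processing notes and the methods of the study, the authors aligned reads to hg38 and to mm10 for the spike-in, removed duplicates with Picard, and called peaks with MACS2 in each library. The MACS2 options and control are not given in the sources used here. The deposited lists reach below the stricter standard that the study gives for WDR5 peaks (−log10 q above 3 and fold above 6), which was run as an alternative. For each peak, the authors deposited a fold enrichment (ratio of summit to local background of the same library, 1 added to each), −log10 p, −log10 q, a score (not used), and the summit. Peak lists are not scaled by the spike-in.

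Fold and −log10 p together gave the whole-number summit pileup and background of 100% of the peaks within 0.001 of −log10 p. The step was tested on simulated data. Coverage was the lowest background in a list. Annotation used GENCODE 44 basic transcripts. Genes named were those the study followed, the nearest genes of the top 5 peaks by −log10 q within each of 6 sets, and up to 4 kept and 4 lost members of highest −log10 q per list (all of a list of 20 or fewer). Other list members, the MS67-only ones included, were named after their values were seen. Some genes that the rule covers, and a gene list, are not reported here. The members and lists were chosen with earlier results of these data known. Strength-weighted shares average the 10 deciles of the DMSO list equally. No test was run, since there was 1 library per condition. The interval of a gene list treats its genes as independent, and many lists were compared, so a value outside an interval is a description. Alternatives were other overlaps, stricter peaks, a shortened DMSO list, and other promoters. The tools were pysam 0.24.0, pandas 2.3.3, scipy 1.17.1, numpy 2.4.6, and matplotlib 3.10.9 under Python 3.11.15.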

Additional observations from a re-analysis of the deposited data

How the results depend on the processing

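The kept share of promoter peaks (36.9%) was above that of distal peaks (20.4%) under all 11 alternatives, 3 of them chosen after the data were seen. Both moved with what counts as kept. With an overlap of 50% of the peak's own length they were 19.3% and 9.88%, with the other list's peak within 1 kb 56.6% and 32.3%, and with its summit within 200 bp (chosen later) 25.9% and 14.9%. With −log10 q above 3 and fold above 6 in both lists they were 21.3% and 14%, and with −log10 q above 5 in both 15% and 9.37%, which holds the shallower MS67 library to a standard that falls with depth. With the DMSO list cut to the size of the MS67 list they were 48.2% and 35.7%, and with the DMSO peaks callable at the MS67 coverage (chosen later) 47.2% and 33.2%. The distal share alone moved with promoters of 1000 bp on either side (15.7%) and with protein-coding start sites only (21.4%).

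The promoter share of MS67-only peaks (34.4%) was 36.7% with the 50% overlap, 24.3% within 1 kb, 51% and 52.8% with the stricter peaks in that order, 36.8% with the shortened DMSO list, 53% with the wider promoters, 28.4% with protein-coding start sites, 37.8% by summits, and 36.7% with the callable DMSO peaks. Of the ribosomal protein genes with a DMSO promoter peak, 32% kept one. This was 56% within 1 kb and 0% with either stricter standard, which left 4 and 7 such genes. Apart from what the alternatives' own construction shows, the cause was not tested. Leaving out regions of raised background (1.86% of the DMSO peaks, chosen later) or placing peaks by their summits moved none of the 4 values beyond its interval. With 1 library per condition, the spread between cultures is unknown, and at a median of 8 fragments per MS67 summit weak sites cannot be told from lost ones.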

Other observations

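The kept share differed between chromosomes. It was 31.8% on chromosome 19 (29.8 to 34.0%) and 29.8% on chromosome 7, and it was 18.5% on chromosome 4 (16.4 to 20.7%) and 19.8% on chromosome 13. The MS67-only share had its lowest and highest values among the autosomes on the same chromosomes 19 (25.5%) and 4 (47.2%). The median −log10 q with DMSO was 4.77 on chromosome 19 and 3.97 on chromosome 4, and the promoter share of the DMSO peaks was 33.1% and 25.8%. Chromosome Y had 24 DMSO peaks, of which 1 was kept.

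Other kinds of genes overlapped few WDR5 peaks. Of all DMSO peaks 25.0% were kept, and of all MS67 peaks 35.6% were MS67-only. The 1879 microRNA genes overlapped 57 DMSO peaks, of which 18 were kept (31.6%, 19.9 to 45.2%), and 30 MS67 peaks, of which 12 were MS67-only. The 512 transcribed processed pseudogenes overlapped 97 DMSO peaks, of which 34 were kept (35.1%). The 10146 other processed pseudogenes overlapped 115, of which 27 were kept (23.5%). The 1901 small nuclear RNA genes overlapped 7 DMSO peaks and the 942 small nucleolar RNA genes 5. Gene length was not taken into account.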
